A study of Homo sapiens with 6 samples.

Results

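The lysosomal hydrolase, membrane and proton pump genes were followed after siRNA transfection of 76N, a cell line from normal mammary epithelium of human origin. The gene set was a list of 38 gene symbols, grouped by role. On the array, 37 of the 38 were read by 85 probe sets that the platform annotation gives a single gene symbol, out of 41091 such probe sets and 54675 in all. GLB1, the beta-galactosidase gene, was left out because its 1 probe set is annotated to a second gene as well. The study holds 6 cultures grown in DFCI-1 medium, with 1 array each, with control siRNA given to 3 of them and Ecd siRNA, which targets the human ecdysoneless gene ECD, to the other 3. The comparison asks which transcripts differ between these groups. Every culture was transfected, and what is described is 1 cell line at an unstated siRNA dose and time.

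The lysosome is the acidic compartment in which cells break down proteins, glycans and lipids. Its lumen holds proteases (the cathepsins), glycosidases and lipid hydrolases, most of which reach it from the Golgi on mannose 6-phosphate receptors, and a multi-subunit ATPase in its membrane pumps in protons. Heavily glycosylated membrane proteins such as LAMP1 and LAMP2 line the inner face, and the transcription factors TFEB and TFE3 bind a motif built around the E-box in the promoters of many of these genes.

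The target transcript ECD had 55.9% of its control signal after Ecd siRNA, with signals of 1007.2 to 1076.6 in the control arrays and 542.5 to 599.8 in the Ecd siRNA arrays (log2 change -0.82, limma adjusted p = 0.000177). Array medians were 128.7 to 147.6, and the ratio of 3' to 5' GAPDH control probe sets, a sign of RNA integrity, was 0.97 to 0.98 in the control arrays and 0.97 to 1.0 in the others. Of 10 mammary epithelial markers, 7 were above the filter described below, with KRT14 between 19871.6 and 23629.7 on every array. KRT19 was under the filter. In such bulk RNA, fewer cells of a type and less RNA per cell cannot be told apart.

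More lysosomal genes were higher than lower after Ecd siRNA, and the changes were modest. All 37 genes had a probe set above the filter, which kept the upper 60% of probe sets by mean signal (at least 90.2). Each gene was read by its brightest probe set. A gene is said to rise or fall only where its adjusted p in limma, over all 14614 genes tested, was under 0.05. By that rule 14 of the 37 lysosomal genes were called in either direction, where 21.2% of all genes tested were. In detail, 10 of the 37 rose, which is 27.0% against 10.1% of all genes tested, and 4 fell, which is 10.8% against 11.0%. The other 23 did not pass the threshold. The list was drawn up with earlier results of these data known, so these shares are a description and not independent evidence of a direction. The median log2 change was 0.14 over the 37 genes and 0.008 over all genes tested, and the range ran from -0.40 for GUSB to 0.81 for CTSD. In 18 of the 37 all Ecd siRNA arrays lay above all control arrays, and in 5 all lay below, where 18.1% and 18.4% of all tested genes did so. Without control replicate 1 the count of rises was 6, without control replicate 2 or 3 the count of falls was 2, and with eBayes run without an intensity trend 5 genes rose. Calls over all genes tested dropped in these fits too. Rises went from 1478 to 1040 without control replicate 1 and to 1073 without the trend. Falls went from 1614 to 1283 without control replicate 2 and to 1277 without control replicate 3.

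**Figure D1:**
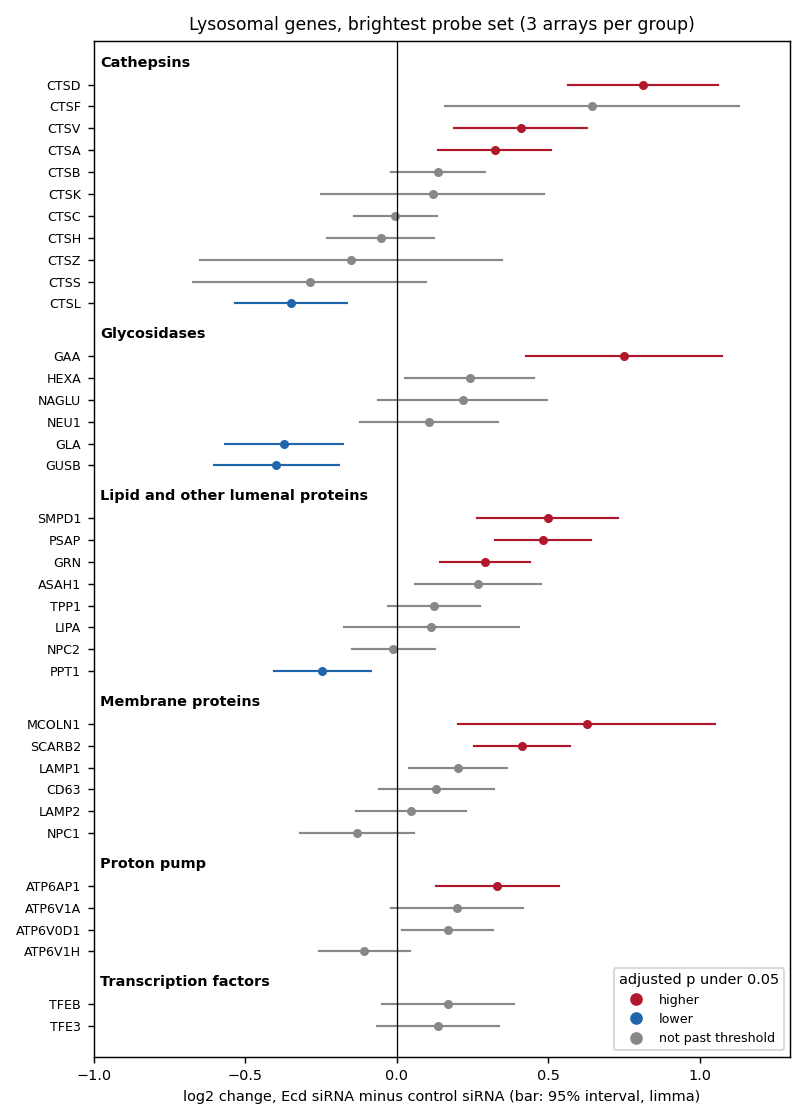
Log2 change of the 37 lysosomal genes (x axis, Ecd siRNA minus control siRNA, on the log2(signal + 16) scale) by role, with points for the limma estimate, bars for its 95% interval and colour for the call. The 10 genes in red rose, from GRN at 0.29 to CTSD at 0.81, and the 4 in blue fell.

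Taken probe set by probe set, the lean towards higher signals was the same. Of 72 lysosomal probe sets above the filter, 23 were called higher, which is 31.9% against 8.36% of the 27030 probe sets tested, and 5 were called lower, which is 6.94% against 8.68%. These came from 14 genes with a higher probe set and 5 with a lower one, and 0 genes had called probe sets in both directions. The total of 28 calls (17.0% of all probe sets tested were called) dropped to 16 on removing control replicate 1 and to 18 on removing Ecd siRNA replicate 2. Calls over all genes tested, counted by gene and not by probe set, dropped in these fits too. Rises went from 1478 to 1040 and falls from 1614 to 1148 without control replicate 1. They went to 1152 and 1290 without Ecd siRNA replicate 2. Probe sets of 1 gene share their target, so they are not separate observations of the gene.

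Promoter windows were set beside these calls because several of the genes that rose are textbook targets of TFEB. RefSeq sequences (GRCh38.p14) from 250 bases before to 50 bases after the start site were found for 28 of the 38 genes; ASAH1, ATP6V1A, ATP6V1H, CTSB, CTSK, CTSS, HEXA, LAMP2, NAGLU and PSAP had no entry. The E-box CACGTG, which reads the same on both strands, was in 9 of the 28 windows (32.1%), against 9.58% of 11708 windows of tested genes. Extended by the flanking T of the TFEB motif to TCACGTG, searched on both strands and by construction overlapping the E-box, it was in 8 of 28 (28.6%, against 5.42%). The E-box was in 4 of the 9 windows of lysosomal genes that rose and in 0 of the 4 of those that fell. It was in 5 of the 14 of those that did not pass, with GLB1 as the remaining window. Over all tested genes it was in 11.1% of 1200 windows of genes that rose and 11.2% of 1342 of genes that fell. The lysosomal windows are too few to relate the E-box to the direction of change. A match of letters is a description and not a bound site. The motif is known from promoters of many of these genes, so its higher share in this list says nothing about Ecd siRNA. The stretches below show the matches upstream of the start site in the 4 genes that rose, and in LAMP1, which holds the most. Capitals mark the E-box with its flanking T or A.
CTSD, chr11:1763949-1763994, minus strand: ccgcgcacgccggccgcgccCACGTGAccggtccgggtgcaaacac
CTSA, chr20:45891273-45891334, plus strand: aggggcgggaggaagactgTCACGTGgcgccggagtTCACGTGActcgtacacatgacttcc
GAA, chr17:80101485-80101575, plus strand: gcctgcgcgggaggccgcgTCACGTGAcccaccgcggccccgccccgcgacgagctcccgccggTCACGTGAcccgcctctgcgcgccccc
MCOLN1, chr19:7522563-7522623, plus strand: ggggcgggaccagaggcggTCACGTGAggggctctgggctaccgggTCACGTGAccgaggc
LAMP1, chr13:113297027-113297236, plus strand: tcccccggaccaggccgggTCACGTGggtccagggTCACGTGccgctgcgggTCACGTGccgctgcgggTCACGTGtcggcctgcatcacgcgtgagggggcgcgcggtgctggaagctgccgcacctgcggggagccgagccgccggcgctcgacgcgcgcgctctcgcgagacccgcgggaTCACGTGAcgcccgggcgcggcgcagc
The matches begin 47 bases upstream of the start site in CTSD, 42 and 25 in CTSA, 76 and 31 in GAA and 41 and 14 in MCOLN1, while the LAMP1 stretch holds 5 matches beginning 192 to 28 bases upstream.

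Among the 11 cathepsin genes, 3 rose (27.3%, against 10.1% of all tested genes), 1 fell (9.09%, against 11.0%) and 7 did not pass. CTSD encodes the main aspartic protease of the lysosome. Its signals with control siRNA were 2729.5, 2977.9 and 2436.4, and with Ecd siRNA they were 4039.3, 5359.9 and 5003.4. The groups were far apart, with means of 2715 ± 271 and 4801 ± 683 (SD, n = 3 each), a 1.76-fold rise (log2 change 0.81, 95% interval 0.56 to 1.06, limma adjusted p = 0.000541). CTSV, a cysteine protease found in few tissues and the closest relative of cathepsin L, read 2330.9, 2347.5 and 2772.2 against 3623.1, 3337.3 and 2951.0. The groups did not overlap, although the lowest Ecd siRNA array was close to the highest control array (1.33-fold, limma adjusted p = 0.0138, or 0.0659 without control replicate 1, in a range of 0.00896 to 0.0685 over the alternatives). CTSA, a carboxypeptidase that also protects beta-galactosidase and sialidase, went from 1441.9, 1432.0 and 1549.6 to 1817.4, 1991.2 and 1747.1. All Ecd siRNA arrays were above the control arrays (1.25-fold, limma adjusted p = 0.0198). That call was lost without control replicate 1 (0.0791), control replicate 2 (0.0635) or Ecd siRNA replicate 2 (0.0763), in a range of 0.0131 to 0.0951 over the alternatives. CTSL, the broadly expressed cysteine protease cathepsin L, moved the other way from its relative CTSV. Its signals of 2027.6, 2238.3 and 1950.7 became 1554.6, 1693.7 and 1613.7, again without overlap (log2 change -0.35, limma adjusted p = 0.0129). Without control replicate 2 the adjusted p was 0.0545, in a range of 0.0100 to 0.0545 over the alternatives.

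Of the 7 cathepsin genes that did not pass on their brightest probe set, CTSF, a cysteine protease gene, had the largest difference. It read 205.2, 218.7 and 162.4 in the control arrays and 308.8, 418.5 and 234.5 with Ecd siRNA. The groups did not overlap, but the 3 Ecd siRNA arrays were widely spread (log2 change 0.64, 95% interval 0.16 to 1.13, limma adjusted p = 0.0619). It passed without Ecd siRNA replicate 3 (0.84, adjusted p = 0.0232, in a range of 0.0232 to 0.219 over the alternatives). CTSB, whose product cathepsin B is an abundant cysteine protease, was at 0.14 in its brightest probe set (limma adjusted p = 0.209), while its other 4 probe sets were at 0.29 to 0.35 with all Ecd siRNA arrays above the controls, and 3 of these 4 were called higher. None of these 3 calls was kept under every alternative. CTSS (-0.29), CTSZ (-0.15), CTSH (-0.05) and CTSK (0.12) had overlapping groups, with limma adjusted p of 0.293 to 0.716. The 95% intervals reach from -0.67 to 0.10 for CTSS, from -0.65 to 0.35 for CTSZ and from -0.25 to 0.49 for CTSK, which leaves changes in either direction possible.

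CTSC, which encodes the dipeptidyl peptidase that activates granule serine proteases, was split between its probe sets. Its brightest probe set was at -0.004 (limma adjusted p = 0.977). The third brightest, in contrast, read 8760.5, 9215.8 and 9618.8 in the control arrays and 6190.2, 6529.0 and 7259.4 with Ecd siRNA, a called fall (log2 change -0.47, limma adjusted p = 0.00212 over all probe sets). The second brightest was on the other side, from 8000.9, 7971.2 and 8200.5 to 9947.9, 9019.9 and 8887.3, with no overlap (0.20, adjusted p = 0.0572 over all probe sets). Within each array, the log2 ratio of the second to the third brightest was -0.23 to -0.13 in the control arrays and 0.29 to 0.68 in the Ecd siRNA arrays. The difference of 0.67 had p = 0.1 in a two-sided exact permutation test, the smallest value that 3 against 3 arrays allow. This pair of probe sets, like those of LAMP2 and TFEB below, was chosen after its values were seen, and the 5 such ratios tested each had p = 0.1, also after Benjamini-Hochberg adjustment in this exact test.

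The 6 glycosidase genes went both ways, with 1 rise, 2 falls and 3 that did not pass. These rises and falls are 16.7% and 33.3%, against 10.1% and 11.0% of all tested genes. GAA, the acid alpha-glucosidase that breaks down glycogen, read 939.6, 861.9 and 1029.6 in the control arrays and 1256.3, 1933.4 and 1666.5 with Ecd siRNA. The Ecd siRNA arrays were more spread but all higher, with means of 943.7 ± 83.9 and 1619 ± 341 (SD, n = 3 each), a 1.68-fold rise (log2 change 0.75, limma adjusted p = 0.00425). GUSB, the beta-glucuronidase gene, fell from 872.4, 872.3 and 911.4 to 694.4, 676.4 and 635.4. The spread within each group was small beside this gap (log2 change -0.40, limma adjusted p = 0.0120). As the mean of its probe sets, 1 of which was under the filter, GUSB was at -0.19 (adjusted p = 0.422, in a range of 0.00863 to 0.422 over the alternatives). GLA, the alpha-galactosidase A gene, went from 1472.4, 1561.6 and 1683.5 to 1284.1, 1163.8 and 1186.5. Here too the groups did not overlap (log2 change -0.37, limma adjusted p = 0.0126), though the adjusted p was 0.0502 without control replicate 3, in a range of 0.00951 to 0.0617 over the alternatives. In the RefSeq table GLA overlaps a read-through gene of its neighbours. Other genes of the set also overlap protein-coding genes there, namely CTSA (PLTP), PPT1 (CAP1), SCARB2 (FAM47E), NPC1 (RMC1), NPC2 (SYNDIG1L), CD63 (RDH5) and LIPA (genes of the IFIT family). Long noncoding RNA genes overlap CTSD (PRADX), ASAH1 (ASAH1-AS1), MCOLN1, SCARB2, CD63 and LIPA. These overlaps are of whole gene spans, without regard to strand, exons or the position of the probe sets. Whether they affect the signals of these genes was not tested. HEXA, the alpha subunit of hexosaminidase A, was at 0.24 with no overlap between groups (limma adjusted p = 0.105). Its other probe sets above the filter were at 0.06 and -0.07, with overlapping groups. As the mean of its 4 probe sets, 1 of which was under the filter, HEXA was at 0.03 (limma adjusted p = 0.916). NAGLU, which acts on heparan sulfate, was at 0.22 (adjusted p = 0.270) and the sialidase gene NEU1 at 0.11 (adjusted p = 0.540), both with overlapping groups.

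Genes for lipid breakdown and other lumenal proteins held 3 rises and 1 fall among 8. These are 37.5% and 12.5%, against 10.1% and 11.0% of all tested genes. PSAP encodes prosaposin, the precursor of the saposins that present sphingolipids to their hydrolases. It read 10705.6, 9823.2 and 11296.9 in the control arrays and 15463.5, 15266.0 and 13763.0 with Ecd siRNA. All Ecd siRNA arrays were well above the controls (1.40-fold, log2 change 0.48, limma adjusted p = 0.000859), and its other probe set was at 0.60 (adjusted p = 0.000762 over all probe sets). SMPD1, the acid sphingomyelinase gene, rose from 640.0, 612.4 and 597.8 to 803.4, 866.0 and 973.6. The groups were apart (1.41-fold, limma adjusted p = 0.00665). As the mean of its 4 probe sets, 2 of them under the filter, it was at 0.08 (adjusted p = 0.808, in a range of 0.00469 to 0.808 over the alternatives). GRN, the progranulin gene, went from 5498.0, 5347.8 and 5526.9 to 7167.6, 6540.4 and 6365.9. The 3 probe sets of GRN were all called higher, at 0.29, 0.31 and 0.37 (limma adjusted p = 0.0104 for the brightest among genes, in a range of 0.00552 to 0.0756 over the alternatives).

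The 1 fall of this group was that of PPT1, the thioesterase that removes palmitate from proteins. It read 3157.8, 2869.2 and 2928.6 in the control arrays and 2584.0, 2427.1 and 2534.5 with Ecd siRNA, with no overlap (log2 change -0.24, limma adjusted p = 0.0359). This call held under 10 of 17 alternatives, the fewest among the 4 falls. Without control replicate 1, 2 and 3 the adjusted p was 0.160, 0.0547 and 0.0681, and without Ecd siRNA replicate 2 and 3 it was 0.112 and 0.0721, in a range of 0.0224 to 0.160 over the alternatives. ASAH1, the acid ceramidase gene, was at 0.27 in its brightest probe set (limma adjusted p = 0.0692), with no overlap. It passed without control replicate 3 (0.0437) or Ecd siRNA replicate 1 (0.0499), and its values ran from 0.00155 to 0.221 over the alternatives. The third brightest ASAH1 probe set was called higher, from 1972.6, 1843.1 and 1981.5 to 2623.6, 2654.6 and 2621.9 (0.44, adjusted p = 0.00251 over all probe sets). The second brightest, at 0.30 with no overlap, did not pass (adjusted p = 0.0621 over all probe sets). The remaining probe set above the filter was at -0.04 with overlapping groups. As the mean of its 5 probe sets, 1 of which was under the filter, ASAH1 was at 0.14 (limma adjusted p = 0.202). The peptidase gene TPP1 was at 0.12 (adjusted p = 0.248), the acid lipase gene LIPA at 0.11 (adjusted p = 0.608) and the cholesterol carrier gene NPC2 at -0.01 (adjusted p = 0.936). For NPC2 the 95% interval was -0.15 to 0.13.

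**Figure D2:**
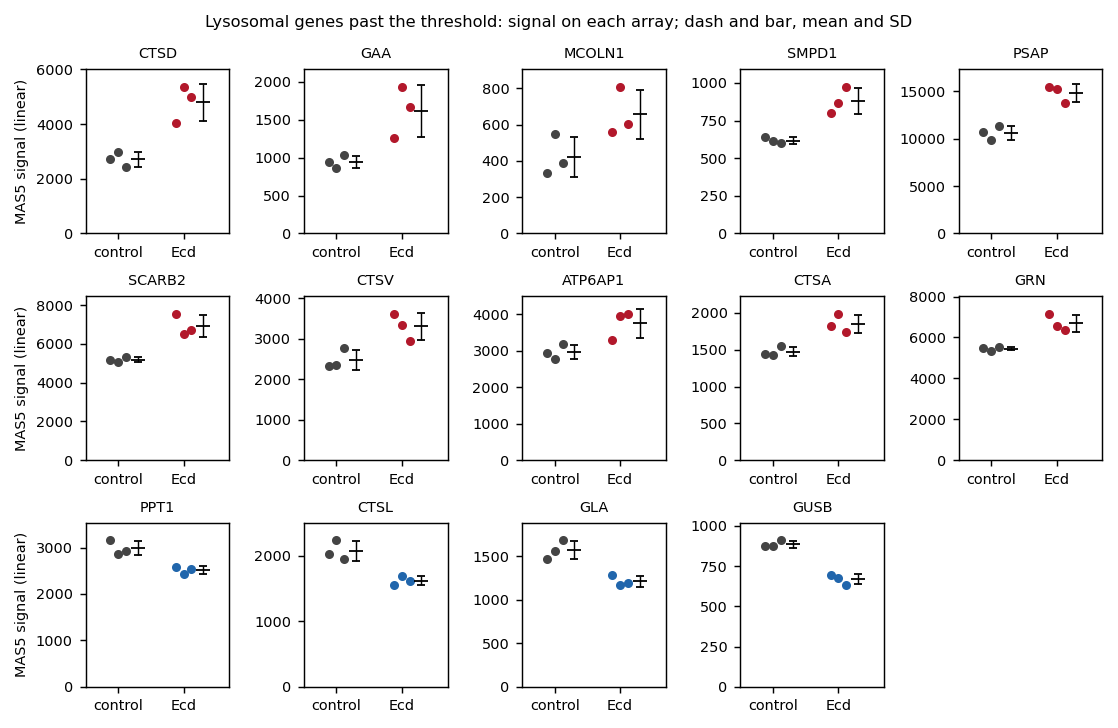
MAS5 signal on each array (y axis, linear, from 0) of the 14 lysosomal genes past the threshold, with points for arrays and a dash with bar for the mean and SD of 3. In each panel the Ecd siRNA points lie wholly above (red) or wholly below (blue) the control points.

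Of the 6 membrane protein genes, 2 rose, 0 fell and 4 did not pass on their brightest probe sets. The rises are 33.3% of this group, where 10.1% of all tested genes rose and 11.0% fell. SCARB2 encodes LIMP-2, the receptor that carries glucocerebrosidase to the lysosome. Its signals were 5167.7, 5076.8 and 5311.7 in the control arrays and 7563.0, 6509.2 and 6708.2 with Ecd siRNA. The groups were clearly apart (1.33-fold, limma adjusted p = 0.00220), and 3 of its 4 probe sets above the filter were called higher. MCOLN1, the gene of the calcium channel TRPML1 of the lysosomal membrane, read 334.4, 547.4 and 387.4 against 557.3, 808.3 and 605.0. The highest control array nearly reached the lowest Ecd siRNA array (1.54-fold, limma adjusted p = 0.0411 among genes and 0.0541 among probe sets). The adjusted p was 0.147 and 0.111 when control replicate 1 or control replicate 3 was left out, and 0.146 and 0.0650 for Ecd siRNA replicates 2 and 3, in a range of 0.00406 to 0.147 over the alternatives. LAMP1 was at 0.20 in its brightest probe set, with no overlap (limma adjusted p = 0.0742). It passed without Ecd siRNA replicate 2 (0.26, adjusted p = 0.0488, in a range of 0.0320 to 0.224 over the alternatives). The next brightest LAMP1 probe set was called higher, with no overlap (0.21, limma adjusted p = 0.0376 over all probe sets). That call was not kept under every alternative. The remaining LAMP1 probe sets above the filter, at 0.33 and 0.03, had overlapping groups and did not pass. The tetraspanin gene CD63 was at 0.13 (adjusted p = 0.338) and the cholesterol exporter gene NPC1 at -0.13 (adjusted p = 0.334), with overlapping groups.

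LAMP2, whose protein forms line the lysosome and include the receptor of chaperone-mediated autophagy, differed between its probe sets. The brightest read 7964.4, 8230.3 and 9224.4 in the control arrays and 7944.8, 8892.6 and 9454.9 with Ecd siRNA. These groups overlapped (log2 change 0.05, 95% interval -0.13 to 0.23, limma adjusted p = 0.748). The other 3 probe sets were all called higher. The second brightest went from 5798.8, 5016.5 and 5465.3 to 10544.6, 10527.9 and 9531.6, a log2 change of 0.91 (limma adjusted p = 3.60e-05 over all probe sets). The third went from 3956.8, 4018.6 and 4151.7 to 6849.9, 6220.2 and 7805.9, a change of 0.78 (adjusted p = 0.000239). In the fourth the signals of 1744.9, 1593.5 and 2049.3 became 3647.6, 3728.5 and 3767.1, a change of 1.05 (adjusted p = 6.97e-05). In these 3 probe sets the Ecd siRNA arrays were far above the control arrays, and the calls held when each array in turn was left out.

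Set against the brightest probe set within each array, the log2 ratio of the second was -0.75 to -0.46 in the control arrays and 0.01 to 0.41 with Ecd siRNA, and that of the third was -1.15 to -1.01 and -0.51 to -0.21. For the fourth it was -2.36 to -2.16 and -1.32 to -1.12. The ratios did not overlap between groups in any of the 3, with differences of 0.86, 0.73 and 1.0 and p = 0.1 each in two-sided exact permutation tests, the smallest value possible. LAMP2 transcripts are spliced to 3 alternative last exons that give the proteins LAMP2A, LAMP2B and LAMP2C. The platform annotation pairs the brightest probe set with the RefSeq record of the LAMP2B transcript and the third with that of the LAMP2A transcript. Which transcripts each probe set binds was not tested. As the mean of its 4 probe sets LAMP2 was at 0.70 (limma adjusted p = 0.000179, in a range of 0.000179 to 0.985 over the alternatives).

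**Figure D3:**
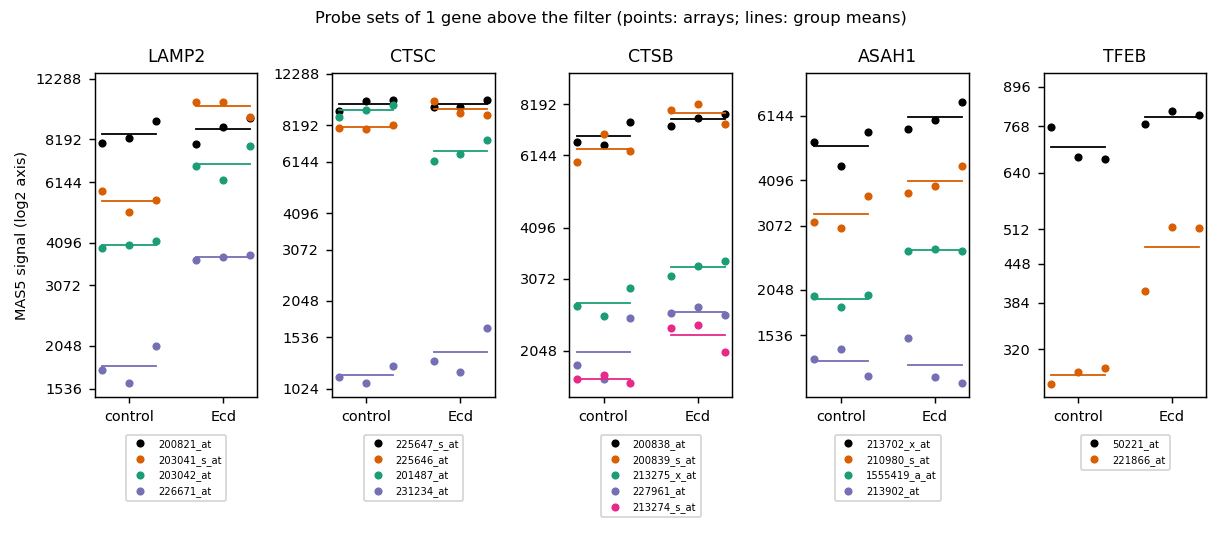
MAS5 signal (y axis, log2-spaced) of every probe set above the filter for 5 lysosomal genes, brightest first in each legend, with points for arrays, lines for group means and 1 colour per probe set. LAMP2 has 1 probe set whose groups overlap and 3 that rose, and CTSC has 1 among 4 that fell.

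The proton pump genes named in the set held 1 rise among 4 (25.0%, against 10.1% of all tested genes). ATP6AP1, an accessory subunit needed for assembly of the pump, read 2946.0, 2787.3 and 3178.8 in the control arrays and 3294.2, 3948.0 and 4023.8 with Ecd siRNA. The groups did not overlap (1.26-fold, limma adjusted p = 0.0268). The call needed control replicates 1 and 2 and Ecd siRNA replicates 2 and 3, with adjusted p of 0.0871, 0.0887, 0.0957 and 0.0885 when each was left out, in a range of 0.00526 to 0.101 over the alternatives. ATP6V0D1, a subunit of the membrane sector, was at 3990.7, 4382.4 and 4291.7 against 4922.3, 4627.8 and 4683.8. All Ecd siRNA arrays were above the controls, at a log2 difference of 0.17 that did not pass (adjusted p = 0.108). ATP6V1A, the catalytic subunit, was at 0.20 in its brightest probe set (adjusted p = 0.189) and at -0.16 in the other (adjusted p = 0.432 over all probe sets). The regulatory subunit gene ATP6V1H was at -0.11 in its brightest probe set, with all Ecd siRNA arrays below the controls (adjusted p = 0.320). Its other probe set above the filter was at 0.24 with overlapping groups (adjusted p = 0.350 over all probe sets).

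Neither of the 2 transcription factor genes passed on its brightest probe set, and 0 had an unadjusted p under 0.05 in limma. TFEB read 765.9, 681.2 and 675.5 in the control arrays and 773.8, 814.2 and 802.1 with Ecd siRNA, a log2 difference of 0.17 (limma adjusted p = 0.270). The groups were just apart. A second, dimmer TFEB probe set was called higher, from 279.5, 293.3 and 296.9 to 402.7, 516.8 and 515.5 (log2 change 0.68, adjusted p = 0.00805 over all probe sets). Its log2 ratio to the first was -1.40 to -1.14 in the control arrays and -0.92 to -0.62 in the others (difference 0.51, p = 0.1 in the exact permutation test, the smallest value possible). As the mean of both, TFEB was at 0.43 (limma adjusted p = 0.0163, in a range of 0.0163 to 0.473 over the alternatives). TFE3 was at 1732.8, 1433.3 and 1530.3 against 1685.7, 1793.8 and 1674.5, with overlap (0.14, adjusted p = 0.344), and 0 of its 4 probe sets passed. Transcript levels do not show where these proteins are in the cell, which is how they are mainly controlled.

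Other genes of the lysosome, its delivery routes and its nutrient sensing were read from 5 further lists. Of 93 such genes tested, 21 rose (22.6%, against 10.1% of all tested genes) and 2 fell (2.15%, against 11.0%), with a median log2 change of 0.16. Other hydrolases and their cofactors held 9 rises (45.0%) and 0 falls among 20. CTSO, the gene of a further cysteine cathepsin, went from 461.2, 482.9 and 451.3 to 920.9, 753.3 and 922.1 (log2 change 0.87, limma adjusted p = 0.000396), without overlap. GALC, the galactosylceramidase gene, changed by 0.56 (adjusted p = 0.00186) and IDUA, the iduronidase gene, by 0.70 (adjusted p = 0.00204). In the list of other proton pump subunits 3 of 17 rose (17.6%) and 0 fell. Those that rose were ATP6V0E1 (0.28), ATP6V0A1 (0.31) and ATP6V1G1 (0.23).

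Among 19 other membrane proteins and transporters, 4 rose (21.1%) and 1 fell (5.26%), where 10.1% and 11.0% of all tested genes did so. The sialic acid transporter gene SLC17A5 changed by 0.50, SIDT2 by 0.37, LAPTM4A by 0.23 and the amino acid transporter gene SLC38A9 by 0.38, while LAPTM5 fell (-0.46). SLC38A9 and LAPTM5 are named only to complete the count, after their values were seen. For delivery to the lysosome, 3 of 19 rose (15.8%) and 0 fell. They were GNPTAB (0.41), which encodes the enzyme subunits that start the mannose 6-phosphate tag, IGF2R (0.32), a receptor of that tag, and VPS41 (0.33), part of the tethering complex HOPS. Of 18 nutrient sensing genes, LAMTOR3 (0.33) and RRAGD (0.95), both of the machinery that docks mTORC1 on the lysosome, rose, and MLST8 (-0.46), an mTOR partner, fell. The rises are 11.1% of this list, near the 10.1% of all tested genes, and the fall is 5.56%, against 11.0%.

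Cathepsins are held in check by cystatins and by some serpins. Of 9 such inhibitor genes tested, 3 rose (33.3%, against 10.1% of all tested genes) and 0 fell. SERPINB3, whose product inhibits cysteine cathepsins, went from 1336.2, 1405.9 and 1335.6 to 3557.0, 3640.5 and 3017.1, a larger rise than that of any of the 37 lysosomal genes (log2 change 1.31, limma adjusted p = 4.25e-06). Its near-identical neighbour SERPINB4 changed by 1.19 and SERPINB13 by 0.99. The probe sets of SERPINB3 and SERPINB4 may read both genes, so their values are uncertain and their rises may not be separate. The cystatin genes CSTA, CSTB and CST3 did not pass, with log2 changes of -0.17, 0.12 and -0.007, and are named here after their values were seen.

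**Figure D4:**
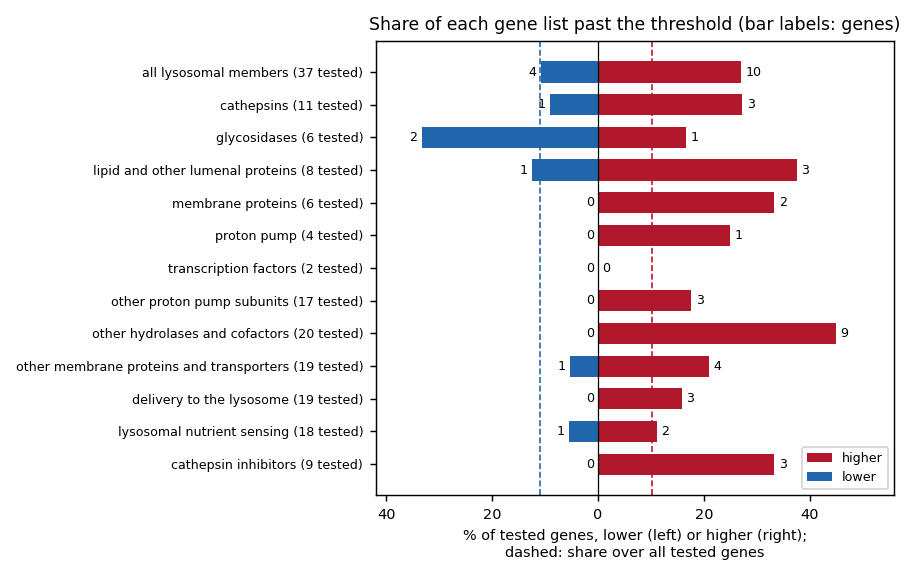
Share of tested genes called lower (left) or higher (right) with Ecd siRNA in each role group and related list, in percent, with the number of genes at the bar ends and dashed lines for all tested genes (11.0% lower, 10.1% higher). The list of other hydrolases and cofactors has the highest share of rises, 9 of 20.

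Markers of other cell types were read in the same fit. Of 12 markers of macrophages and other leukocytes, cells rich in lysosomes, 5 were above the filter, and in limma 0 were called and 0 had an unadjusted p under 0.05. These 5 were CSF1R (log2 difference 0.37), LYZ (0.22), TYROBP (-0.21), ITGAM (-0.26) and MS4A1 (-0.48). CSF1R was higher in all Ecd siRNA arrays, at 219.0, 305.9 and 235.4 against 217.8, 146.7 and 214.7, and the groups of the other 4 overlapped. The summed signal of the 11 with a probe set was 1047.5 to 1194.2 in the control arrays and 927.6 to 1142.9 with Ecd siRNA, and PTPRC, CD14, CD163, AIF1, MRC1 and CD3E were under the filter. Endothelial markers summed to 985.7 to 1072.5 and 914.9 to 1077.8. Fibroblast markers summed to 6209.6 to 6664.4 in the control arrays and 11570.9 to 13475.2 with Ecd siRNA, with 3 of 6 tested called higher, namely LOX (1.38), FAP (1.03) and COL1A1 (0.52). Most of the higher sum came from LOX and FAP. THY1 (-0.32), COL1A2 (-0.17) and DCN (0.11) did not pass and had overlapping groups, while PDGFRA, PDGFRB, LUM and COL3A1 were under the filter. The part of the fibroblast and epithelial markers in the lysosomal rises was not tested. The epithelial markers summed to 63424.1 to 68574.5 in the control arrays and 64396.7 to 68150.5 with Ecd siRNA, sums made up mostly of KRT14 and KRT5. Of the 7 tested, CDH1 rose (0.25, limma adjusted p = 0.00914), KRT18 fell (-0.52, adjusted p = 0.00197) and the other 5 did not pass.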

How the data were processed

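RNA of 6 cultures was measured on 1-colour Affymetrix arrays, with grouping and numbering by sample title. The authors deposited linear intensity values, made with MAS5 per the submitters' processing notes. The trimmed mean between percentiles 2 and 98 was 500.05 on each array, so a global shift cannot be seen in these values. The table held 0 missing values and no detection calls. Probe sets were named from the platform annotation, and 41037 of the 41091 with 1 symbol were found in the RefSeq table (GRCh38.p14).

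Values were converted to log2(signal + 16), which understates the change of dim transcripts, and all fold changes are on that scale. The brightest probe set of each gene, if in the upper 60% of probe sets, was tested in limma 3.58.1 (lmFit, eBayes with trend, Benjamini-Hochberg) under R 4.3.3, without covariates. All probe sets were also fitted on their own. The fit was tested on simulated data. Every gene of the set is accounted for, and those past the threshold, or the 2 with the smallest p in a role group with fewer calls, are given by array. From related lists up to 3 genes past the threshold were named. The members and lists were chosen with earlier results of these data known. Alternatives were pseudocounts of 1 and 64, quantile and median normalization, other filters and probe set rules, eBayes without trend, array weights, a replicate block and each array left out. The labels call the replicates biological, and 3 arrays per group limit the precision.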

Additional observations from a re-analysis of the deposited data

How the results depend on the processing

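ECD kept its fall under all 17 alternatives run. CTSD, GAA, PSAP and SCARB2 rose under all 17 as well, while the other 10 called lysosomal genes lost the call under 1 or more, and 7 of the 23 that did not pass were called under 1 or more. The count of lysosomal rises, 10 in the main fit, was 5 without the intensity trend and 6 to 11 with 1 array left out. The count of falls, 4 in the main fit, was 2 with a common median and 2 to 4 with 1 array left out. With the common median, falls over all tested genes went from 1614 to 1261. The median log2 change of the lysosomal genes was 0.17 with probe sets lacking _s or _x preferred and 0.14 to 0.20 with 1 array left out. The called probe sets were 16 to 25 with 1 array left out. CTSC was at 0.20 (adjusted p = 0.0495) with probe sets lacking _s or _x preferred, another probe set than the brightest. The cause of the other shifts was not tested. Over all genes 2188 to 3307 were called, against 3092 in the main fit. With the replicate block 13 lysosomal genes rose and 4 fell. Over all tested genes 1585 rose and 1691 fell in that fit, against 1478 and 1614 in the main fit. Deviations of same-numbered arrays correlated at -0.003, 0.08 and 0.16 across genes, and those of differently numbered arrays at -0.14 to 0.05. The values of 0.08 and 0.16 thus lie above all those of differently numbered arrays. The sample titles state no pairing, and the main fit was run without one.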
